A study of Mus musculus with 33 samples.

Results

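Immunoglobulin variable (V) segments are the germline pieces of the antibody genes that encode most of the antigen-binding domain. The segments described here are the features of the gene count table whose symbol starts with Ighv (heavy chain), Igkv (kappa light chain) or Iglv (lambda light chain) and whose raw counts summed to 50 or more over all 33 libraries. The rule kept 124 of 348 V features: 62 of 185 Ighv features on chromosome 12, 59 of 160 Igkv features on chromosome 6 and all 3 Iglv features on chromosome 16. Of the 348 features, 218 had any count. The 124 segments held 144501 counts, 99.1% of all V counts. Just inside the minimum lay Ighv2-6 with 53 counts, Igkv10-94 with 51 and Ighv8-6 with 50, and just outside it Igkv8-24 with 45, the pseudogene Ighv8-10 with 43 and Ighv9-1 with 40. The annotation gives 5 of the 124 as pseudogenes, namely Ighv1-41, Ighv1-62, Ighv1-73, Ighv1-83 and Igkv4-77. The segments were chosen by their summed raw count, so their abundance is given as a description.

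A B cell joins a V segment to a joining segment, and in the heavy chain to a diversity segment between them, and from then on transcribes the chosen heavy and light V segments as parts of its receptor. A plasma cell, the antibody-secreting stage of the lineage, transcribes the same rearranged genes at very high levels. Ighv11-2 with Igkv14-126 is a textbook receptor of B-1a cells that binds phosphatidylcholine, and Ighv7-1 is the S107 segment of the T15 antibodies to phosphorylcholine. Myeloid cells do not rearrange these genes.

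The series profiled sorted mouse bone marrow cells by full-length RNA sequencing from small inputs (a SMART-seq2 protocol started from 2 ng of total RNA). Wild-type control mice gave GMP, the granulocyte-monocyte progenitors sorted as Ly6C-negative, the early and later committed neutrophil progenitors proNeu1 and proNeu2, the proliferating neutrophil precursors preNeu, the common monocyte progenitors cMoP, the transitional pre-monocytes TpMo and the Ly6C-high monocytes (Ly6Chi Mo). GMP, proNeu1, proNeu2 and preNeu were also sorted by the same gates from mice killed 3 days after mid-grade cecal ligation and puncture (CLP), a surgical model of sepsis, and no sepsis group exists for the monocyte path. Each of the 11 groups had 3 libraries, which the design text calls biological replicates. Strain, age and sex, any sham operation, and whether a library held 1 animal or a pool are not given in the sources used here. The replicate numbers below follow accession order and only name libraries.

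Library totals ran from 5517734 to 39977745 counts with a median of 21666392, and 5 libraries held under 10000000, namely proNeu1 1, preNeu 3, Ly6Chi Mo 2, septic proNeu1 1 and septic preNeu 3. The labelled populations carried their defining transcripts: Mpo, the azurophil granule peroxidase, stood at 34624 to 42360 CPM (counts scaled to a library total of 1000000) in GMP, 56792 to 61376 in proNeu1 and 36.9 to 45.4 in Ly6Chi Mo, and the specific granule gene Ltf at 26631 to 36652 CPM in preNeu. Library preNeu 3 stood apart within its group, with Mpo at 12897 CPM against 5552 and 6136 in the other preNeu libraries and the progenitor factor Irf8 at 42.4 CPM against 3.36 and 4.94. Xist, transcribed from the inactive X chromosome, was at 0 to 1.40 CPM in the 9 monocyte-path libraries and at 153 to 587 CPM in the other 24, while the Y-linked Ddx3y was at 68.8 to 98.6 CPM in those 9 and at 0 to 0.725 CPM in the other 24. The sex of the mice and the monocyte path therefore cannot be told apart. All comparisons are of bulk RNA, in which fewer cells of a type and less RNA per cell cannot be told apart.

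The 5 segments printed here led the V counts of proNeu1 in control or septic mice, or are the near-copy of one that did. Each line gives the last 300 coding bases of the annotated germline segment on the GRCm38 build (GENCODE annotation), 5′ to 3′, so that the start of the leader is left out. Ighv11-2 lies at chr12:114048241-114048812 and Ighv11-1 at chr12:113981879-113982341, both on the minus strand. Each has 353 coding bases, and capitals mark the 4 bases at which they differ, an identity of 98.9%.
Ighv11-2: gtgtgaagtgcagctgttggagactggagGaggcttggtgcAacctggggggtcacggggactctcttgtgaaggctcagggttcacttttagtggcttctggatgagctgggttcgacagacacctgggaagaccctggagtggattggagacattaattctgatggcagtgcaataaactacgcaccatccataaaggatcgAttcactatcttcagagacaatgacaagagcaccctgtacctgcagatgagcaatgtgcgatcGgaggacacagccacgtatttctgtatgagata
Ighv11-1: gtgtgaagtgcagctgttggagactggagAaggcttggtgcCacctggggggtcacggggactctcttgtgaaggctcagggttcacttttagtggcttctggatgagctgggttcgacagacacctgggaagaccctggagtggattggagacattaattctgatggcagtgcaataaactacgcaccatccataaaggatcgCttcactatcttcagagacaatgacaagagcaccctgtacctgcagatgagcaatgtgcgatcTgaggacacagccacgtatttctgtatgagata
Igkv14-126 lies at chr6:67896172-67896642 on the plus strand, and its 27 capitals mark mismatches to Igkv14-111 (91.5% identical over its 353 coding bases). Ighv7-1 lies at chr12:113896408-113896946 on the minus strand, and its 34 capitals mark bases that differ from, or have no partner in, Ighv7-3 (88.9% identical over 361 aligned bases of its 363). Igkv15-103 lies at chr6:68437440-68437925 on the plus strand, and its 66 capitals do the same against Igkv15-97 (81.4% identical over 333 aligned bases of its 347).
Igkv14-126: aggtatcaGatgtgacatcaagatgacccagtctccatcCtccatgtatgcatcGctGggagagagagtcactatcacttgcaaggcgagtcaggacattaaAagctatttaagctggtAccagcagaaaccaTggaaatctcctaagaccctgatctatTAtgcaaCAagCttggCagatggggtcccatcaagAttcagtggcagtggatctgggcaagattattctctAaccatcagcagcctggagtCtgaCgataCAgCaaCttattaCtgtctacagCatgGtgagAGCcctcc
Ighv7-1: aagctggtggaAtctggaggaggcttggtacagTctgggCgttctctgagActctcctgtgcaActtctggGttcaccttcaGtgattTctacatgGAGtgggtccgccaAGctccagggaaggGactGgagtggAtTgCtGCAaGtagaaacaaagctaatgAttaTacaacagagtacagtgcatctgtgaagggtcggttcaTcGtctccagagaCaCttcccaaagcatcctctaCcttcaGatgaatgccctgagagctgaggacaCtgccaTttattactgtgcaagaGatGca
Igkv15-103: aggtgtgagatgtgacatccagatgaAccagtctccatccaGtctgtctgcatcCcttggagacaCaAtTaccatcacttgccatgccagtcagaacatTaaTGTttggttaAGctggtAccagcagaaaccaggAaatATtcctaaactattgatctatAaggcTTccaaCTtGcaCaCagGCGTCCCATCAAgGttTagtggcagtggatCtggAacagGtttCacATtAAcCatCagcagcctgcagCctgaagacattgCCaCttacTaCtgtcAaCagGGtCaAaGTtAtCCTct
How reads that fit several segments were counted is not given in the sources used here, so values of near-identical segments are uncertain. Ighv11-1 is the clearest case: its 860 counts were 3.42% of the 25113 counts of Ighv11-2, and this share was 0.885% to 4.32% in every library with 100 or more Ighv11-2 counts. Among the 124 segments the identity over aligned bases to the nearest segment of the same chain, looked for within the family where it has another member and among all lambda segments for Iglv, had a median of 95.6% (range 60.8% to 99.7%), and 31 were at least 97% identical to it. Igkv14-126, Igkv15-103 and Ighv7-1 were below 97%, as the identities above show.

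V counts were concentrated in few segments. Ighv11-2 alone held 17.4% of the counts of the 124 segments, the top 5 held 52.6% and the top 20 held 83.5%. The 10 most abundant were Ighv11-2 (25113 counts), Igkv14-126 (18586), Igkv8-30 (11273), Igkv15-103 (10764), Ighv7-1 (10283), Igkv12-89 (6030), Igkv4-63 (5644), Ighv1-55 (4666), Iglv1 (4352) and Ighv5-16 (4234). At the other end, 66 segments had under 200 counts, and 41 had counts in 5 libraries or fewer. Only 5 segments, named here after their values were seen, had counts in 20 or more libraries: Ighv11-2 in 20, Ighv1-74 in 20, Iglv2 in 21, Iglv1 in 22 and Ighv1-41 in 31. Control proNeu1 held the library with the highest CPM for 79 segments and control GMP for 29, whereas a septic library did so for 5. Those 5 were Ighv1-34, Ighv1-53, Ighv1-71 and Igkv6-25 in septic proNeu1 and Ighv8-6 in septic GMP, and Ighv1-34 had 53 of its 54 counts in septic proNeu1 2.

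The counts were also uneven over families and loci. The Ighv11 family, 2 segments here, held 38.3% of heavy V counts. The Ighv1 family, the largest in the genome with 93 features and 35 segments here, held 25.5%, Ighv7 held 17.4% and Ighv5 held 9.62%. Among kappa counts Igkv14 held 27.6% and Igkv8 17.7%, with Igkv15 at 15.7%, Igkv4 at 14.4% and Igkv12 at 11.8%. Iglv1 took 53.3% of the lambda counts, Iglv2 43.6% and Iglv3 3.04%. By position, the 185 Ighv features were split into 4 nearly equal groups, and shares here are of the counts of all 185. The first group (chr12:113572927-114094358, the end next to the constant genes) held 15 of the 62 heavy segments and 64.1% of these counts. The other 3 groups held 10.8% to 12.8% each.

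The summed level of the 124 segments was highest in control proNeu1 and next in control GMP. The 3 GMP libraries held 347, 388 and 269 CPM (mean 335 ± 60.4 SD, n = 3) and the 3 proNeu1 libraries 1135, 2241 and 1092 CPM (1489 ± 651). The sum was 32.4, 66.0 and 37.0 CPM in proNeu2, and 43.7, 28.4 and 262 CPM in preNeu. In preNeu the mean of 111 CPM rested on library preNeu 3, without which it was 36.0. The monocyte path had the lowest control sums, at 9.70, 3.12 and 2.41 CPM in cMoP, 2.38, 1.02 and 1.52 in TpMo and 2.18, 1.16 and 0.861 in Ly6Chi Mo. The groups proNeu1, GMP and proNeu2 did not overlap, nor did cMoP with any of these, whereas TpMo and Ly6Chi Mo overlapped. Even at its highest, in proNeu1 2, the sum was 0.224% of the library.

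**Figure D1:**
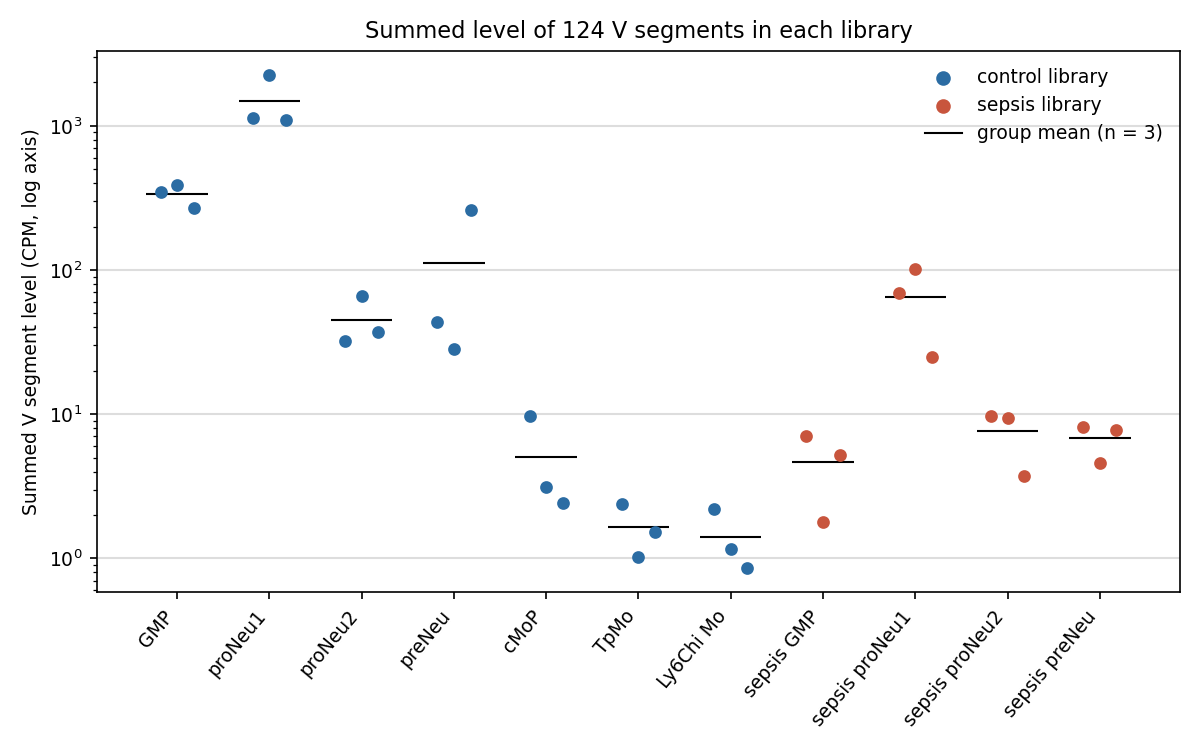
Summed level of the 124 V segments in each library (points; CPM on a log axis) by group, with the mean of 3 libraries as a line, control groups in blue and septic groups in red. The proNeu1 and GMP controls lie at 269 to 2241 CPM, and each septic group lies below its control group.

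In septic mice the sums were lower in all 4 populations, with no overlap between any septic group and its control. Septic GMP libraries held 7.04, 1.80 and 5.21 CPM, a mean 71.4-fold below control GMP. Septic proNeu1 libraries held 68.9, 102 and 25.01 CPM, 22.9-fold below control. Septic proNeu2 libraries held 9.64, 9.39 and 3.71 CPM (5.96-fold below) and septic preNeu libraries 8.12, 4.60 and 7.72 CPM (16.4-fold below the control mean that rests on preNeu 3). The order of the populations was kept at the top: septic proNeu1 was the highest septic group, as proNeu1 was the highest control group. No test is given for a sum over segments chosen in this way.

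In control mice the number of segments with counts ran in the order of the mean sums. There 123 of the 124 segments had counts in proNeu1, 64 of them in all 3 libraries, and 109 had counts in GMP, 29 of them in all 3. The numbers were 69 in proNeu2, 82 in preNeu, 30 in cMoP, 23 in TpMo and 17 in Ly6Chi Mo. In septic mice they were 48 in proNeu1, 32 in both GMP and proNeu2, and 30 in preNeu, and 1 to 4 segments per septic group had counts in all 3 libraries. In GMP the mean CPM was lower in sepsis for 106 segments and higher for 4. The numbers were 119 and 5 among proNeu1 libraries, 65 and 11 for proNeu2, and 82 and 2 for preNeu. A segment can meet the count minimum through the group where it is high. That top library was in control proNeu1 for 79 segments and in control GMP for 29. The directions are thus partly set by the choice of segments, and these numbers describe and do not support. The same numbers over all features are not given here. The 4 higher in GMP were Ighv1-69, Ighv1-77, Ighv8-6 and Igkv9-120, the 5 in proNeu1 Ighv1-34, Ighv1-53, Ighv1-61, Ighv1-71 and Ighv8-6, and the 2 in preNeu Ighv1-47 and Ighv14-2, all named after their values were seen.

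The constant gene Ighm, which encodes the heavy chain of IgM and can be transcribed in a germline form that holds no V segment, did not track the V sum on the monocyte path. Ighm stood at 629, 642 and 565 CPM in GMP and at 747, 681 and 771 in cMoP, although the V sum of cMoP was far below that of GMP. Per 100 Ighm counts there were 25.4, 22.3 and 22.3 heavy V counts in GMP and 19.5, 21.8 and 20.0 in proNeu1, but only 6.20, 5.78 and 6.14 in proNeu2. The ratio was 0.313 to 0.674 in cMoP, 0.0893 to 0.320 in TpMo and 0.0790 to 0.295 in Ly6Chi Mo. It is compared only between libraries, since the counts are not divided by length.

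In sepsis Ighm fell as well, and the heavy V ratio was higher in proNeu1 and proNeu2. Ighm stood at 43.7, 4.15 and 15.9 CPM in septic GMP and 179, 240 and 61.6 CPM in septic proNeu1, against 2866, 4498 and 2613 CPM in control proNeu1. By edgeR's quasi-likelihood test over all libraries its mean log2 fold change over the 4 populations was -4.17 ± 0.29 (SE; adjusted p = 5.79e-12). Heavy V counts per 100 Ighm counts were 28.8, 29.5 and 28.0 in septic proNeu1, all above the 3 control proNeu1 libraries, and 15.3, 43.7 and 26.4 in septic proNeu2, all above the 3 control proNeu2 libraries. In GMP the septic range (9.56 to 37.7) spanned the control range, on few counts. Kappa V counts per 100 counts of Igkc, the kappa constant gene, were 69.7 to 79.6 in GMP and 70.4, 77.4 and 81.4 in proNeu1. In septic proNeu1 they were 54.8, 71.4 and 64.1, lower in 2 libraries than all 3 controls and within the control range in the other, so the kappa ratio did not move upward as the heavy one did.

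**Figure D2:**
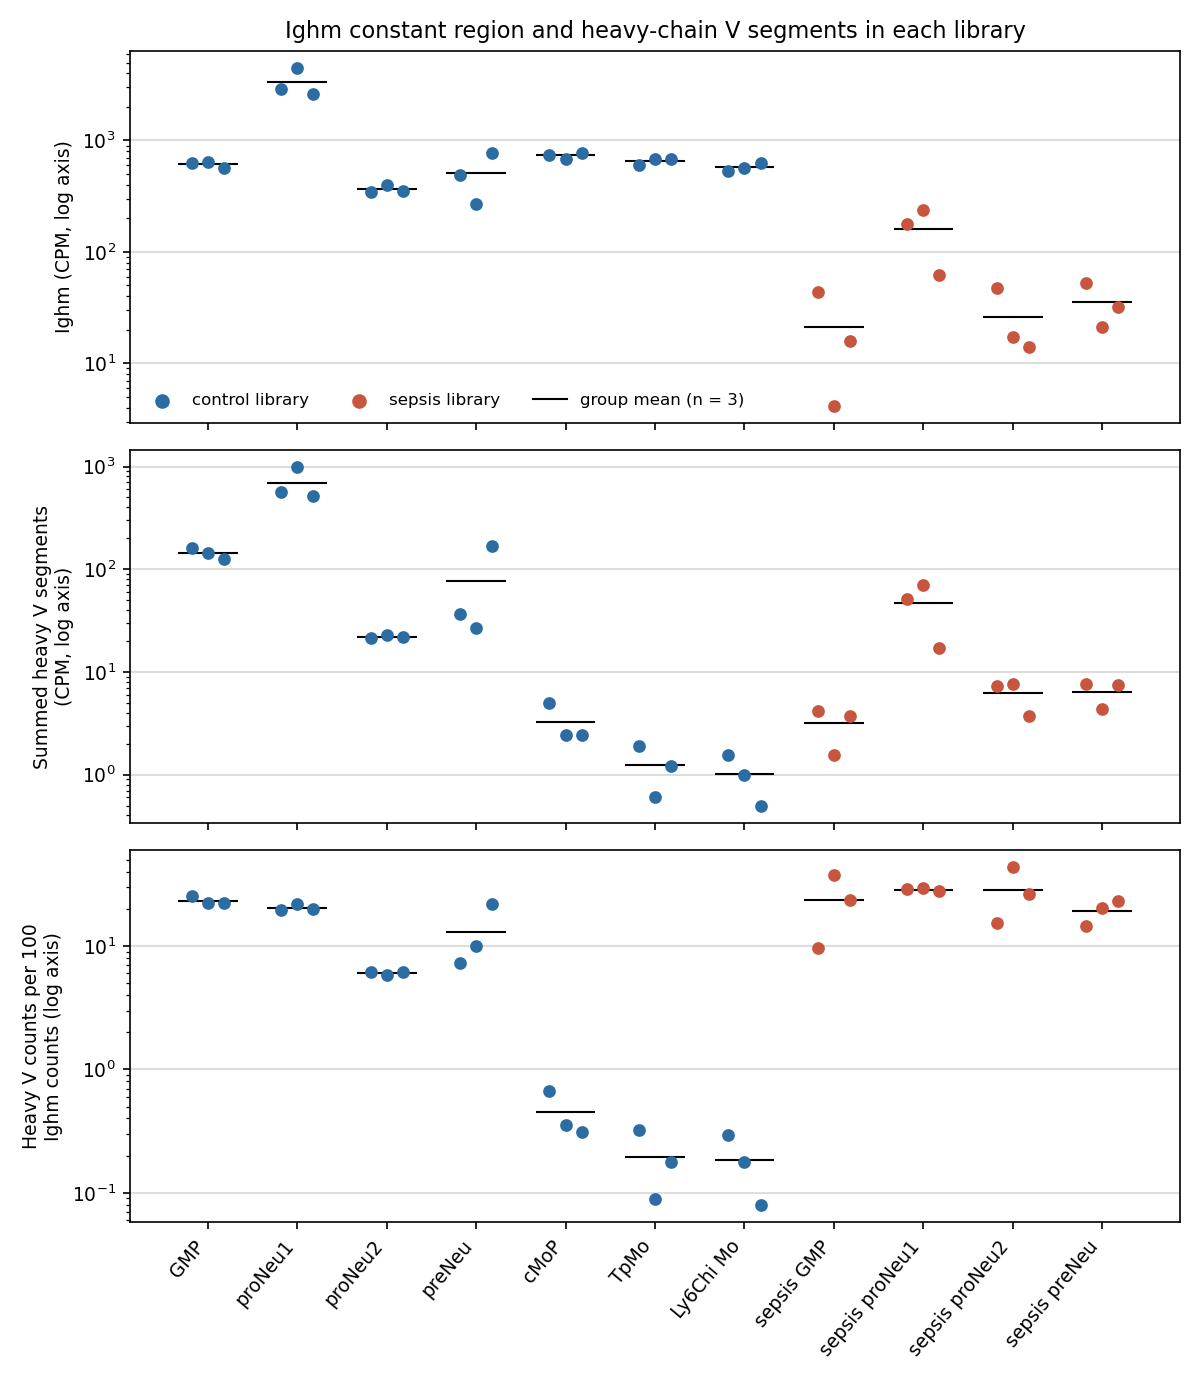
Ighm level (top, CPM), summed heavy V level (middle, CPM) and heavy V counts per 100 Ighm counts (bottom) in each library by group, on log axes, with lines at the mean of 3 libraries. The monocyte-path libraries lie at 529 to 771 CPM of Ighm with 0.0790 to 0.674 heavy V counts per 100, and the septic libraries lie low in the upper panels but not in the bottom one.

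Ighv11-2 and Igkv14-126 led control proNeu1. Ighv11-2 stood at 28.7, 7.62 and 16.8 CPM in GMP, 151, 450 and 264 in proNeu1, 0.143, 1.65 and 3.88 in proNeu2 and 4.76, 0.132 and 20.5 in preNeu. Igkv14-126 stood at 16.1, 8.03 and 9.40 CPM in GMP, 96.0, 314 and 211 in proNeu1, 0.0954, 1.40 and 2.55 in proNeu2 and 3.08, 0 and 20.1 in preNeu. For both segments every proNeu1 library was above every other control library, and GMP and proNeu2 did not overlap. In cMoP both were highest in library 1, at 1.24 and 2.23 CPM.

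From GMP to proNeu1, 5 of the 85 segments that passed the low-count filter were higher, and none was lower, by edgeR's quasi-likelihood test with Benjamini-Hochberg adjustment over 18198 genes at 0.05, where 3.59% of all genes tested were called higher. The other 39 of the 124 segments were not tested. A segment abundant in 1 group alone passes the filter because of that group, so counts of calls and median fold changes describe and do not support. Ighv11-2 was higher by a log2 fold change of 4.16 ± 1.06 (SE; adjusted p = 0.0150), Ighv7-1 by 8.32 ± 2.14 (adjusted p = 0.0227), Ighv11-1 by 5.08 ± 1.33 (adjusted p = 0.0332) and Igkv14-126 by 4.35 ± 1.28 (adjusted p = 0.0404). Ighv5-9-1 had 0 counts in GMP and 627 in proNeu1, at least 195-fold higher against a floor of 3 counts over the group (adjusted p = 0.0238), and 22.6 of its CPM came from proNeu1 2 against 4.13 and 0.075 in the other 2 proNeu1 libraries. The median log2 fold change of the 85 segments was 1.74.

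These 5 calls rest on few libraries. The Ighv11-2 call was lost without GMP 2 (adjusted p = 0.0929), GMP 3 (0.0695) or proNeu1 2 (0.102) and with DESeq2 (0.212), within a range of 0.00173 to 0.212 over 14 alternatives. The Ighv7-1 call was lost without GMP 1 (0.114), GMP 2 (0.104), proNeu1 2 (0.0605) or proNeu1 3 (0.0629), within a range of 0.00051 to 0.137. The Igkv14-126 call was lost without any of the 6 libraries, at 0.0534 to 0.168, and its fold kept its direction in all 14 alternatives. The Ighv11-1 call was lost without GMP 1, 2 or 3 or proNeu1 2 or 3 (0.0892 to 0.132), and the Ighv5-9-1 call without GMP 1, 2 or 3 or proNeu1 2 (0.0665 to 0.137).

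From proNeu1 to proNeu2, 5 of 85 segments were lower and none was higher, where 1.48% of all genes tested were called lower. Ighv11-2 fell by 7.15 ± 1.25 (SE) on the log2 scale (edgeR, adjusted p = 0.00136), the one call here that was kept in all 14 alternatives. Igkv14-126 fell by 7.16 ± 1.49 (adjusted p = 0.00809), but not past the threshold without proNeu2 2 (0.0532). Iglv1, the most used lambda segment, stood at 51.0, 49.7 and 33.7 CPM in proNeu1 and 0.763, 0.100 and 4.52 in proNeu2, and fell by 4.52 ± 1.20 (adjusted p = 0.0372). That call was lost without proNeu1 1, 2 or 3 (0.0639 to 0.0894), proNeu2 1 (0.122) or proNeu2 2 (0.141). Ighv11-1 fell from 826 counts to 2, a ratio of CPM of 346 (95% exact counting interval 95.6 to 2866; adjusted p = 0.0143), and was not called without proNeu1 2 (0.0539) or proNeu2 2 (0.0683). Igkv12-44, at 13.6, 31.2 and 12.3 CPM in proNeu1, had 0 counts in proNeu2, at least 394-fold lower (adjusted p = 0.0164), and was not called without proNeu2 2 (0.0581) or proNeu2 3 (0.0504). The median log2 fold change of the 85 segments was -5.25.

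**Figure D3:**
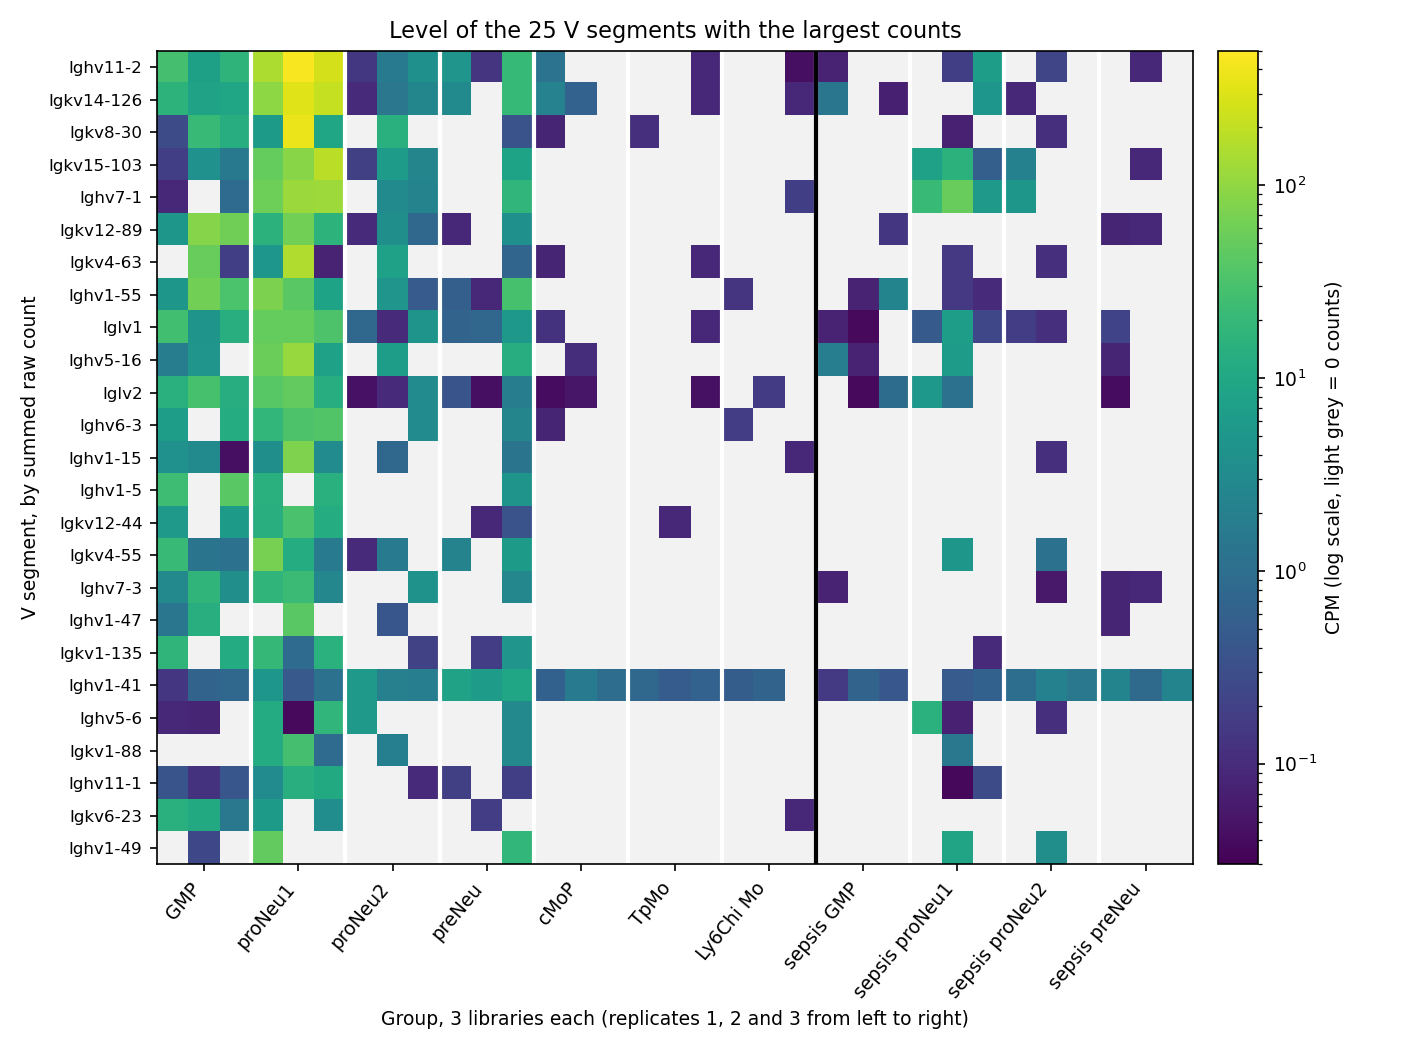
Level of 25 V segments (vertical axis) in each of the 33 libraries (horizontal axis, ordered by group), as colour on a log scale of CPM (yellow high, purple low, grey 0 counts). Ighv11-2, Igkv14-126, Ighv7-1 and Igkv15-103 are bright in all 3 control proNeu1 libraries, Igkv8-30 is brightest in proNeu1 2, and Ighv1-41 shows counts in nearly every library.

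Ighv7-1 and Igkv15-103 were also abundant in all 3 proNeu1 libraries, as were other segments such as Iglv1. Ighv7-1 stood at 0.0923, 0 and 0.903 CPM in GMP and at 58.4, 116 and 121 in proNeu1, with no overlap. Igkv15-103 stood at 0.185, 4.18 and 1.54 CPM in GMP and at 50.1, 89.3 and 179 in proNeu1, again with no overlap, though its change was not among the calls. In preNeu both had counts in library 3 alone, at 17.8 and 8.34 CPM.

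Among the other abundant segments some peaked in 1 library and others were spread. Igkv8-30 stood at 371 CPM in proNeu1 2 against 6.05 and 9.03 in the other proNeu1 libraries, and at 20.8 and 12.9 CPM in GMP 2 and GMP 3 against 0.277 in GMP 1. Igkv4-63 stood at 158 CPM in proNeu1 2, 52.2 in GMP 2 and 7.85 in proNeu2 2, and at 4.87 CPM or less in every other library. Libraries proNeu1 2, GMP 2 and proNeu2 2 were thus the 3 highest for Igkv4-63, each of a different population, and the numbers are names that give no shared animal. Igkv12-89 stood at 5.17, 85.4 and 60.1 CPM in GMP, where it led the light counts of GMP 2 and GMP 3 but not of GMP 1. In proNeu1 it stood at 15.3, 61.9 and 16.0 CPM. Ighv1-55 stood at 5.08, 64.0 and 32.3 CPM in GMP, at 73.7, 41.1 and 8.45 in proNeu1 and at 29.2 in preNeu 3.

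The leading segments differed among the GMP libraries. Shares are given only for libraries with 50 or more counts of the chain, with exact 95% binomial intervals that cover counting error only. Among GMP libraries, Ighv11-2 led the heavy counts of GMP 1 with 18.0% (16.7% to 19.3%), Ighv1-55 those of GMP 2 with 44.8% (43.1% to 46.5%) and Ighv1-5 those of GMP 3 with 32.7% (30.9% to 34.4%). Ighv1-5 stood at 24.5 and 41.1 CPM in GMP 1 and GMP 3 and had no counts in GMP 2. The light counts were led by Iglv1 in GMP 1 (13.9%) and by Igkv12-89 in GMP 2 (34.9%) and GMP 3 (42.1%).

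In proNeu1 the same heavy segment led every library: Ighv11-2 held 27.1%, 45.8% and 50.5% of the heavy counts. Igkv14-126 led the light counts of proNeu1 1 (16.6%) and proNeu1 3 (37.0%) and came behind Igkv8-30 (29.5%) in proNeu1 2, where it held 24.97%. The 3 proNeu2 libraries shared no leader: Ighv5-6 (27.2%) and Igkv19-93 (45.0%) led proNeu2 1, Ighv5-16 (30.3%) and Igkv8-30 (33.5%) led proNeu2 2, and Ighv7-3 (20.1%) and Iglv1 (29.5%) led proNeu2 3. Lambda segments made up 51.0% of the light counts of proNeu2 3 against 7.36% and 0.464% of those of proNeu2 1 and proNeu2 2.

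The evenness of use can be put as an effective number of segments, the exponential of the Shannon entropy of the shares, which equals the count of segments if all were used alike. For heavy segments it was 19.7, 8.67 and 7.19 in GMP, 12.8, 7.29 and 5.72 in proNeu1 and 3.73, 2.64 and 5.14 in septic proNeu1. The septic libraries were below all 3 control libraries, at 332, 1911 and 362 heavy V counts against 3790 to 25859. The means for light segments were 12.1 in proNeu1 and 3.83 in septic proNeu1. The effective number falls with fewer counts, and the part of depth in this difference was not tested.

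By family, GMP and proNeu1 differed in the balance of Ighv1 and Ighv11. The Ighv1 family held 46.7% to 67.5% of the heavy counts in GMP and 8.29% to 37.8% in proNeu1, without overlap. Ighv11 held 5.42% to 18.2% in GMP and 27.7% to 52.6% in proNeu1, also without overlap. In septic proNeu1 Ighv7 held 33.7% to 72.8% against 13.5% to 23.6% in control proNeu1, and Ighv11 held 0% to 40.1%. In preNeu the Ighv1 family held 57.5% to 89.4%, and in the 2 septic preNeu libraries with enough counts 92.8% and 94.5%.

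**Figure D4:**
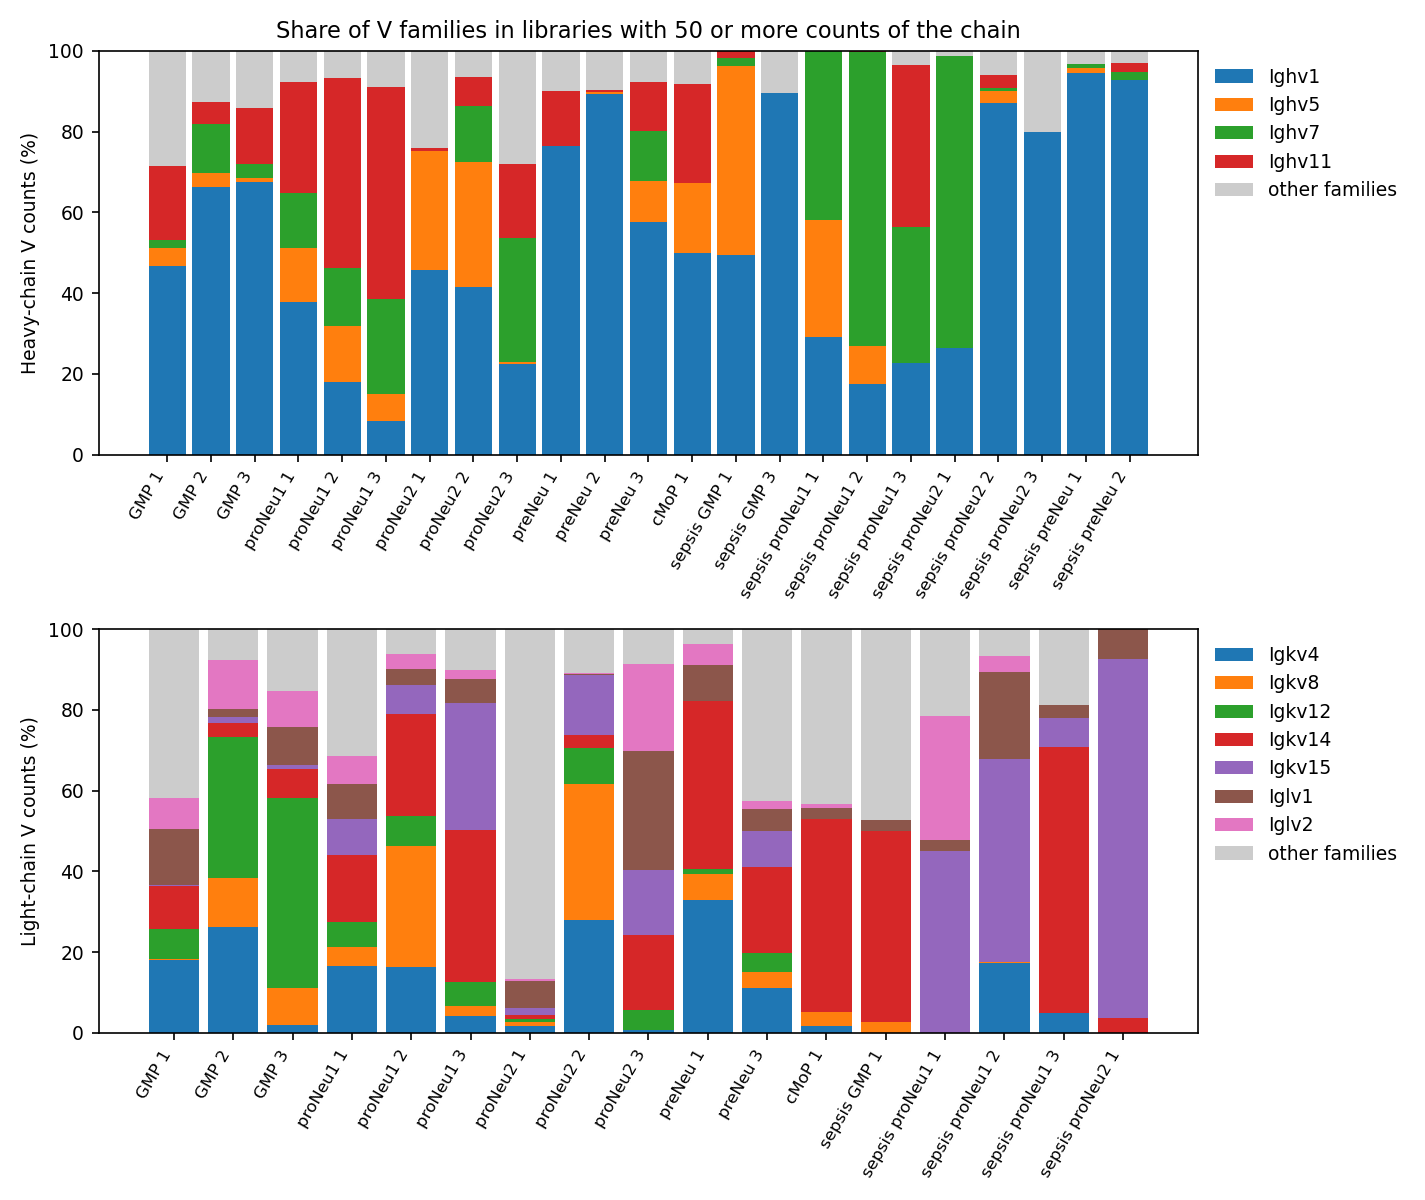
Share of heavy V counts (upper panel, 23 libraries) and light V counts (lower panel, 17 libraries) held by each V family, in percent, for libraries with 50 or more counts of the chain. Ighv11 takes 27.7% to 52.6% of the heavy counts in control proNeu1, and Ighv7 takes 33.7% to 72.8% in septic proNeu1.

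Heavy V counts outnumbered light ones in all 3 preNeu libraries. Libraries preNeu 1 and preNeu 2 had 779 and 611 heavy V counts but 158 and 32 light V counts, and preNeu 3 had 927 and 521. The proNeu2 libraries had 448, 458 and 442 heavy and 231, 862 and 312 light counts, so proNeu2 1 had fewer light per heavy counts than preNeu 3. In septic preNeu the heavy counts were 183, 97 and 43 and the light counts 12, 6 and 2. The leading heavy segments were Ighv1-74 in preNeu 1 (27.2%), Ighv1-41 in preNeu 2 (23.9%) and Ighv1-55 in preNeu 3 (17.4%), and Ighv1-41 led septic preNeu 1 with 31.7% and septic preNeu 2 with 19.6%.

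From proNeu2 to preNeu 5 of 85 segments were higher by edgeR, all of them heavy, where 13.1% of all genes tested were called higher. Ighv1-74 stood at 9.88, 4.94 and 3.99 CPM in preNeu against 0.0954, 0.600 and 0.196 in proNeu2, with no overlap, a log2 fold change of 4.61 ± 1.43 (SE; adjusted p = 0.0168). It was not called without proNeu2 1 (0.0693), proNeu2 3 (0.0666) or preNeu 1 (0.0664). The other 4 had 0 counts in proNeu2: Ighv1-62-3 was at least 21.8-fold higher (adjusted p = 0.0337), Ighv1-77 at least 18.9-fold (0.0455), Ighv1-80 at least 14.8-fold (0.0475) and Ighv9-3 at least 6.18-fold (0.0488). All 4 calls were lost without proNeu2 1, 2 or 3 or preNeu 1 (0.0631 to 0.122), that of Ighv1-62-3 also without preNeu 2 (0.0613), those of Ighv1-77 (0.0959) and Ighv1-80 (0.0522) without preNeu 2, and those of Ighv1-80 (0.100) and Ighv9-3 (0.128) without preNeu 3.

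Ighv1-41, a pseudogene that cannot encode a heavy chain, was the most widely detected segment. It had counts in 31 of 33 libraries, with none in Ly6Chi Mo 3 and septic proNeu1 1. Its level was 7.97, 6.44 and 9.24 CPM in preNeu, 5.58, 2.10 and 1.92 in proNeu2, and 0.138, 0.655 and 0.768 in GMP. On the monocyte path, where most segments were at 0, it stood at 0 to 1.62 CPM. Its mean log2 fold change in sepsis was -1.40 ± 0.47 (SE; edgeR, adjusted p = 0.0184), lost without proNeu1 1 (0.0657) and without the 5 shallow libraries (0.122).

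From GMP to cMoP 21 of 85 segments were lower by edgeR, where 7.96% of all genes tested were called lower. The 21 comprised 9 heavy and 12 light segments, and 15 had 0 counts in cMoP. Igkv12-89 had 3528 counts in GMP and 0 in cMoP, at least 1038-fold lower (adjusted p = 0.000807), and Ighv1-55 was at least 702-fold lower (adjusted p = 0.00567). Ighv11-2 had 30 counts in cMoP, all in cMoP 1, and fell by 5.19 ± 1.25 (SE) on the log2 scale (adjusted p = 0.00370). Iglv1 fell from 973 counts to 3, a ratio of CPM of 286 (95% exact counting interval 97.6 to 1390; adjusted p = 0.000520), and Iglv2 from 1322 to 2, a ratio of 583 (161 to 4822; adjusted p = 0.00120). These 5 calls were kept in all 14 alternatives. The count fell to 8, 9 and 9 without cMoP 1, 2 and 3, and the shift coincides with the change of sex given above, from which it cannot be told apart.

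Along the rest of the monocyte path the segments were too low to compare. From cMoP to TpMo edgeR called 0 of 85 segments, where 18.1% of all genes tested were called, with 0 at an unadjusted p under 0.05 and 1 call by DESeq2. From TpMo to Ly6Chi Mo it called 0, where 20.9% of all genes were called, with 1 at an unadjusted p under 0.05 and 3 calls by DESeq2. The highest V sum on this path was 9.70 CPM, in cMoP 1, in which Ighv1-9 held 32.8% of 122 heavy counts and Igkv14-126 47.8% of 113 light counts.

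In septic GMP 22 of 85 segments were lower and none higher by edgeR's quasi-likelihood test, where 7.42% of all genes tested were called lower. The median log2 fold change of the 85 segments was -5.69. Segments can pass the count minimum and the filter through a control group, so this median is partly set by that choice. The medians given below for the other sepsis comparisons share this limit. Of the 22, 9 were heavy and 13 light, and 15 had 0 counts in septic GMP. Ighv11-2 fell from 1180 counts to 2, a ratio of CPM of 683 (95% exact counting interval 189 to 5643; adjusted p = 0.000405). Iglv1 fell from 26.1, 4.59 and 13.3 CPM to 0.0796, 0.0391 and 0 (adjusted p = 0.000416), and Igkv12-89 from 5.17, 85.4 and 60.1 CPM to 0, 0 and 0.142 (log2 fold change -9.68 ± 1.88, adjusted p = 0.00125).

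Igkv6-23 (609 counts to 0, at least 235-fold lower, adjusted p = 0.00715), Igkv12-44 (254 to 0, at least 98.0-fold, 0.00804) and Iglv2 (1322 to 27, log2 fold change -5.69 ± 1.49, 0.00807) complete the 6 segments with the lowest adjusted p in septic GMP. The calls of Ighv11-2, Iglv1, Igkv12-89 and Iglv2 were kept in all 14 alternatives. Igkv14-126, at 1.35, 0 and 0.0708 CPM in septic GMP, had a log2 fold change of -4.42 ± 1.40 (adjusted p = 0.0288), lost without GMP 1 (0.0758), septic GMP 2 (0.120) or septic GMP 3 (0.126). The number of segments called fell to 14 without GMP 1 and to 9, 7 and 8 without septic GMP 1, 2 and 3, and DESeq2 called 16. In septic GMP 1 the heavy counts were led by Ighv5-16 (46.7% of 105), with Ighv1-69 at 40.0%, and the light counts by Igkv14-126 (47.2% of 72). In septic GMP 3 Ighv1-55 led with 63.2% of 106.

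In septic proNeu1 25 of 85 segments were lower and none higher, where 7.3% of all genes tested were called lower. The median log2 fold change of the 85 was -6.77. Ighv11-2 stood at 0, 0.185 and 6.61 CPM in septic proNeu1, below all 3 controls, with a log2 fold change of -6.77 ± 1.23 (SE; adjusted p = 0.000293). Igkv14-126 stood at 0, 0 and 5.04 CPM, a change of -6.72 ± 1.46 (adjusted p = 0.00206). Both were thus detected mainly in septic proNeu1 3. Igkv12-89 fell from 2376 counts to 0, at least 590-fold lower (adjusted p = 0.00216), and Igkv12-44 from 1408 to 0, at least 350-fold (adjusted p = 0.00407). Igkv8-30 fell from 10175 counts to 2, a ratio of CPM of 3791 (95% exact counting interval 1049 to 31311; adjusted p = 0.00282), with proNeu1 2 alone at 371 CPM. Ighv11-1, the near-copy of Ighv11-2, fell by 6.13 ± 1.43 (adjusted p = 0.00793).

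The calls of Ighv11-2, Igkv14-126, Igkv12-89 and Ighv11-1 in septic proNeu1 were kept in all 14 alternatives. The number called fell to 16 without proNeu1 2, to 12, 8 and 8 without septic proNeu1 1, 2 and 3, to 8 without the 5 shallow libraries and to 11 with DESeq2. Iglv1, at 0.467, 6.66 and 0.238 CPM in septic proNeu1, had a log2 fold change of -4.05 ± 1.17 (edgeR, adjusted p = 0.0183), lost without septic proNeu1 1 (0.0844) or 3 (0.0837). The calls in septic GMP and septic proNeu1 shared 16 segments, 72.7% of those in GMP and 64.0% of those in proNeu1. The same shares over all genes called are not given here, so this overlap is a description and is not read as particular to the segments.

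Ighv7-1 and Igkv15-103 were not among the 25. Ighv7-1 stood at 21.6, 51.5 and 5.80 CPM in septic proNeu1 against 58.4, 116 and 121 in control, all septic libraries below all controls, with a log2 fold change of -1.85 ± 1.54 (SE; edgeR, adjusted p = 0.480). Igkv15-103 stood at 7.78, 15.5 and 0.570 CPM against 50.1, 89.3 and 179, again without overlap, a change of -3.69 ± 1.56 (adjusted p = 0.123). A p that misses the threshold does not show that these segments were unchanged. Within septic proNeu1 they took the lead: Ighv7-1 held 41.9% and 72.8% of the heavy counts in libraries 1 and 2, and Igkv15-103 held 45.0% and 50.2% of the light counts. In septic proNeu1 3 Ighv11-2 (38.4%) still led with Ighv7-1 (33.7%) behind it, and Igkv14-126 held 64.6% of the light counts.

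In septic proNeu2 4 of 85 segments were lower, where 7.57% of all genes tested were called lower, and the median log2 fold change was -2.03. The 4 were all light. Iglv2 (70 counts to 0, at least 23.9-fold lower, edgeR adjusted p = 0.0266), Igkv12-89 (94 to 0, at least 32.1-fold, 0.0358), Iglv1 (log2 fold change -4.13 ± 1.38, 0.0393) and Igkv8-30 (289 to 2, a ratio of CPM of 148 with a 95% exact counting interval of 40.6 to 1227, 0.04999) made up the list. All 289 control counts of Igkv8-30 were in proNeu2 2, without which its log2 fold change was 2.70 (adjusted p = 0.854). All 4 calls were lost in several alternatives: the count was 2 without proNeu2 2 or proNeu2 3 and 0 without any 1 of the 3 septic proNeu2 libraries. Ighv11-2 had a log2 fold change of -4.73 ± 1.77 (adjusted p = 0.0671) and was not called. Septic proNeu2 1 was led by Ighv7-1, at 5.24 CPM and 72.4% of its heavy counts, and by Igkv15-103, at 2.13 CPM and 88.9% of its light counts, and septic proNeu2 2 by Ighv1-49 with 48.9%.

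In septic preNeu 3 of 85 segments were lower, where 4.21% of all genes tested were called lower, and the median log2 fold change was -4.25. Ighv11-2 fell from 218 counts to 2, a ratio of CPM of 115 (95% exact counting interval 31.4 to 953; edgeR adjusted p = 0.00873), Igkv14-126 from 177 to 0, at least 62.1-fold lower (adjusted p = 0.0179), and Ighv1-55 from 175 to 0, at least 61.4-fold lower (adjusted p = 0.0318). Library preNeu 3 held most of these control counts, and without it 1 segment was called. Without septic preNeu 1 or 2 none was called, and the Ighv11-2 call then had an adjusted p of 0.0583 or 0.0513. The Igkv14-126 call was lost without preNeu 3 (0.0962), septic preNeu 1 (0.0775) or septic preNeu 2 (0.0854).

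Averaged over the 4 populations, 37 of 85 segments were lower in sepsis and none higher, where 17.5% of all genes tested were called lower, and the median log2 fold change was -4.66. The 37 comprised 21 heavy and 16 light segments. By edgeR, Ighv11-2 had a mean log2 fold change of -6.98 ± 0.81 (SE; adjusted p = 6.37e-08), Iglv1 of -5.19 ± 0.70 (1.20e-06), Igkv14-126 of -6.65 ± 0.98 (4.66e-06), Igkv12-89 of -8.40 ± 1.08 (5.61e-06), Iglv2 of -5.48 ± 0.92 (3.01e-05) and Ighv1-55 of -8.14 ± 1.28 (3.53e-05). The size of such a mean rests in part on groups with 0 to 4 counts and is no bound. All 6 were called in each of 32 alternatives.

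Ighv7-1 (mean -4.33 ± 1.50, adjusted p = 0.0277) and Igkv15-103 (-4.87 ± 1.13, 0.00175) were also among the 37. The Ighv7-1 call was lost without preNeu 3 (mean -1.87), GMP 3 (adjusted p = 0.290), proNeu2 2 (0.0524), septic preNeu 1 (0.0506) or septic preNeu 2 (0.0504), and the Igkv15-103 call without preNeu 3. Without preNeu 3 the number of segments called was 19. A segment with no counts in both groups of a population gives no usable mean: this held for 38 of the 85, none of which was called, so that the 37 calls were made among 47 segments.

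No segment's change was shown to differ between populations. The test of any difference among the 4 sepsis effects called 0 of 85 segments by edgeR, where 6.34% of all genes tested were called, with 3 at an unadjusted p under 0.05 and 0 calls by DESeq2. The unequal numbers of calls, 22, 25, 4 and 3, therefore do not show unequal effects.

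Among the septic groups alone the V counts were low and few changes were called. From septic GMP to septic proNeu1 1 segment was higher, where 0.83% of all genes tested were called higher, namely Iglv1, which had 3 counts in septic GMP and 188 in septic proNeu1 (a ratio of CPM of 90.8 with a 95% exact counting interval of 30.6 to 444; edgeR adjusted p = 0.0459). It was not called without septic GMP 1, 2 or 3 or without septic proNeu1 2 (adjusted p = 0.745), the library with 6.66 CPM. DESeq2 called 8 segments. From septic proNeu1 to septic proNeu2 edgeR called 0, where 0.72% of all genes were called, with 12 at an unadjusted p under 0.05 and 3 by DESeq2. From septic proNeu2 to septic preNeu it called 0, where 16.9% of all genes were called, with 4 at an unadjusted p under 0.05 and 7 by DESeq2.

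Heavy and light segments that peaked in the same library were listed. A heavy and a light segment were paired where both had their highest CPM in the same library, each had at least 50% of its CPM summed over all libraries there, and each had at least 50 counts there. The rule gave 128 pairs of 18 heavy and 30 light segments, all of them in 4 control libraries. Library proNeu1 2 gave 84 pairs, of 7 heavy segments (Ighv1-15, Ighv1-18, Ighv1-47, Ighv1-82, Ighv14-4, Ighv5-16 and Ighv5-9-1) with 12 light ones, Igkv8-30, Igkv4-63 and Igkv1-88 among them. GMP 1 gave 20 pairs (Ighv1-76, Ighv1-80, Ighv10-3, Ighv4-1 and Ighv5-12 with Igkv1-133, Igkv3-1, Igkv3-4 and Igkv4-74), proNeu1 1 gave 14 (Ighv1-49 and Ighv1-50 with 7 light segments) and proNeu1 3 gave 10 (Ighv14-2 and Ighv5-17 with 5). In septic proNeu1 1 and septic proNeu1 2, 1 heavy segment each met the rule with no light partner. Bulk libraries do not say which segments a cell held, so several partners in 1 library cannot be resolved and a pair is not a receptor.

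Segments spread over several libraries do not meet that rule, so the overlap of the profiles was also taken, a measure added after the data were seen. It is the sum over libraries of the smaller of the 2 segments' shares of their own summed CPM. Over the 272 heavy and light pairs of segments with 500 or more counts its median was 40.9%, and 4 pairs reached 90%. Ighv11-2 and Igkv14-126 had the highest, 95.4%, ahead of Ighv1-47 with Igkv4-63 at 94.4%, Ighv11-1 with Igkv14-126 at 91.9% and Ighv5-16 with Igkv1-88 at 91.6%. Ighv7-1 and Igkv15-103 overlapped by 78.7%. All points share the library's depth and its total V level, so the overlap is a description.

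The ratio of the partners' counts within a library does not depend on the library's V level. Ighv11-2 had 0.556 to 1.79 counts per Igkv14-126 count over the 12 libraries with at least 20 counts of each, with a median of 1.37 (1.06 per length). That minimum narrows the range, since it leaves out libraries where 1 partner was low. Septic GMP 1 had 2 Ighv11-2 and 34 Igkv14-126 counts, and cMoP 2 had 0 and 12. Ighv1-47 and Igkv4-63 reached 20 counts together in 2 libraries only, GMP 2 (334 and 1275 counts) and proNeu1 2 (1097 and 4158 counts). Their ratios there were 0.262 and 0.264. Libraries under the minimum differed: proNeu2 2 had 8 and 157 counts, proNeu1 1 had 0 and 33, and GMP 1 had 30 and 0. The 2 ratios therefore do not show a fixed ratio. Ighv7-1 and Igkv15-103 were less steady, at 0.492 to 3.33 over 10 libraries with a median of 1.23. Among these 10, the 3 highest ratios were the 3 septic ones, 2.78 and 3.33 in septic proNeu1 1 and 2 and 2.46 in septic proNeu2 1. The highest control value was 2.13 in preNeu 3. Left out by the minimum were septic proNeu1 3, with 122 Ighv7-1 and 12 Igkv15-103 counts, and GMP 2, with 0 and 102, among others. Ighv5-16 against Igkv1-88 ranged from 3.48 to 8.83 over 5 libraries.

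**Figure D5:**
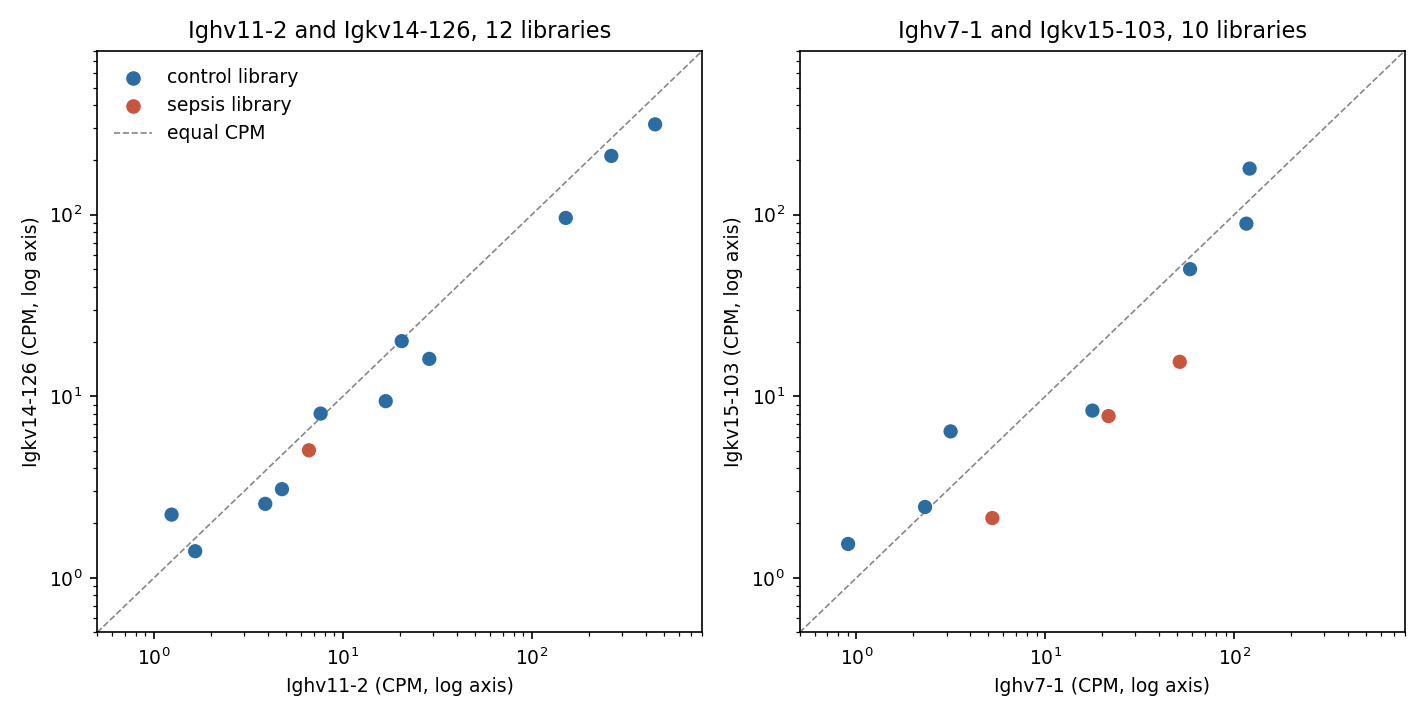
Level of a light segment (vertical axis) against its heavy partner (horizontal axis) in CPM on log axes, for Ighv11-2 with Igkv14-126 (left, 12 libraries) and Ighv7-1 with Igkv15-103 (right, 10 libraries), in libraries with at least 20 counts of each; the dashed line marks equal CPM. The left points lie near that line, with ratios of 0.556 to 1.79, and the 3 septic points of the right panel lie on its heavy side.

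Libraries could also be compared by how much of their V counts fell on the same segments. Over the 136 pairs of the 17 libraries with 200 or more V counts, the median shared share was 23.5%. The most alike were proNeu1 1 and preNeu 3 with 73.1%, then septic proNeu1 2 and septic proNeu2 1 with 68.4%, preNeu 1 and preNeu 2 with 61.6%, proNeu1 3 and septic proNeu1 3 with 61.3%, proNeu1 2 and proNeu1 3 with 57.6% and GMP 2 and GMP 3 with 54.6%. The segment Ighv1-49 shows the first of these: it had 326 counts in proNeu1 1 and 103 in preNeu 3, both shallow libraries, and no counts in the other proNeu1 and preNeu libraries. It was also shared by septic proNeu1 2, with 234 counts, and septic proNeu2 2, with 64. Library proNeu2 2 shared 52.4% with proNeu1 2 and 40.5% with GMP 2. Whether such libraries came from the same mice is not given in the sources used here.

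Genes of the B lineage were read beside the segments, and their part in these results was not tested. The list of 13 immunoglobulin constant genes, Jchain included, summed to 915 to 1186 CPM in GMP and 3657 to 6810 in proNeu1 and to 5.59 to 51.4 and 79.5 to 299 in their septic counterparts, and edgeR called 8, 6, 5 and 3 of 10 tested lower in septic GMP, proNeu1, proNeu2 and preNeu and none higher. In septic GMP Ighd, Ighe, Ighg1, Ighg2c, Ighg3 and Iglc3 were at 0. Of these, Ighe, Ighg1, Ighg2c and Ighg3 were at 0 in control GMP as well. Jchain, which joins secreted IgM and IgA, stood at 334, 605 and 320 CPM in proNeu1 and 21.8, 16.4 and 4.94 in septic proNeu1 (mean over populations -5.43 ± 0.63), and Igkc had a mean log2 fold change of -5.60 ± 0.62. Of the 16 libraries with a V sum above the median over all 33, Igkc and Jchain were above their own medians in 15, Igha in 14 and Ighm in 8. Igha, the IgA constant gene, stood at 127, 60.2 and 34.5 CPM in GMP. Ighg1 reached 59.4 CPM in proNeu1 2.

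The other lists of B lineage genes were read in the same way. The 14 plasma cell genes summed to 1041 to 1199 CPM in GMP and 1126 to 1342 in proNeu1, and to 1329 to 1519 and 1544 to 1742 in sepsis, with 43.8% and 53.3% of the control GMP and proNeu1 sums in the secretory regulator Xbp1. In the mean over populations 4 of 13 tested were higher and 2 lower. For proNeu1 edgeR called 2 of 13 tested genes of the list higher in sepsis and 1 lower. Without Xbp1 the list summed to 505 to 661 CPM in proNeu1 and 651 to 926 in septic proNeu1, with overlap. In GMP that sum was 524 to 739 CPM, against 512 to 676 in septic GMP. Sdc1, Pou2af1, Tnfrsf17 and Mzb1, given next, are low members of the list and do not stand for it. Sdc1, the plasma cell surface marker CD138, stood at 3.88 to 5.08 CPM in GMP and 2.74 to 4.93 in septic GMP. In proNeu1 Sdc1 stood at 2.20 to 10.7 CPM, against 0 to 2.49 in septic proNeu1, with overlap. Pou2af1 of the same list stood at 0.976 to 5.47 CPM in proNeu1 and 0 to 0.074 in septic proNeu1. In GMP Pou2af1 stood at 0.723 to 1.66 CPM and in septic GMP at 0. Tnfrsf17 stood at 0.295 to 1.15 CPM in proNeu1 and 0 to 0.074 in septic proNeu1. Mzb1, a chaperone of IgM in plasma and marginal zone B cells, stood at 1.18 to 4.48 CPM in proNeu1 and at 0 in all 3 septic proNeu1 libraries (mean -5.38 ± 0.86).

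The 16 early B cell genes summed to 64.9 to 73.9 CPM in GMP and 56.8 to 68.7 in proNeu1 against 38.6 to 41.9 and 26.5 to 37.0 in sepsis, and 78.1% to 79.1% of the control sums came from Cd79b. Cd79a, the other chain of the receptor's signalling pair, had a mean change of -1.92 ± 0.48 (edgeR, adjusted p = 0.00190), and 6 of 11 tested genes of the list were lower in the mean. Rag1, a recombinase of V segments, was at 0 in every library but septic proNeu1 1 (0.311 CPM). Rag2, the other recombinase gene of the list, stood at 3.35 to 3.57 CPM in proNeu1 and at 0 in all 3 septic proNeu1 libraries. In GMP it stood at 0.0903 to 3.46 CPM, against 0.0354 to 0.391 in sepsis. Igll1 stood at 2.24 to 5.60 CPM in proNeu1 and 0.761 to 1.56 in septic proNeu1, but at 0.632 to 1.57 in GMP and 0.637 to 2.03 in septic GMP. The 13 mature B cell genes summed to 2640 to 3748 CPM in GMP, 44.1% of it in the MHC class II gene H2-Ab1, which dendritic cells also express, and to 185 to 200 in septic GMP. In proNeu1, where the V sum was highest, the sums were 207 to 263 CPM, and 202 to 249 in septic proNeu1. Cd37 alone held 67.9% of the control and 90.6% of the septic proNeu1 sum. Without Cd37 the list summed to 57.8 to 88.7 CPM in proNeu1 and 15.7 to 28.9 in septic proNeu1, without overlap. There edgeR called 1 of 12 tested genes of the list lower in sepsis and 0 higher. Ms4a1, the B cell antigen CD20, was at most 0.0759 CPM in control proNeu1.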

How the data were processed

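RNA of sorted bone marrow cells was sequenced in 33 libraries of 11 groups, 3 libraries each. The authors deposited raw counts per gene for 54752 features, aligned with STAR to GRCm38 and counted with featureCounts, per the submitters' processing notes. Tool versions, strand, multi-mapping and mate counting are not given in the sources used here. Of counts from 1 to 10, 76.2% of all features' and 68.1% of the segments' were even, so mates may have been counted separately, and halved counts were an alternative.

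Levels in CPM were raw counts scaled to a total of 1000000, on library totals of 5517734 to 39977745. Changes were tested with edgeR 4.0.16 (R 4.3.3, limma 3.58.1) by the robust quasi-likelihood test, TMM scaling and filterByExpr, in one model of all 33 libraries with 15 contrasts, adjusted by Benjamini-Hochberg over 18198 genes at 0.05. The biological coefficient of variation was 0.472 and the median residual degrees of freedom 22. Alternatives used DESeq2 1.42.0, RLE factors, other filters, fewer libraries and library sizes without immunoglobulin features. The model was also run on simulated counts, with rises set in abundant genes of septic proNeu1 only. That setting does not cover falls to few counts or segments carried by a single library. Segment sequences came from the GENCODE annotation of GRCm38 and were aligned with Biopython 1.88. P-values measure the spread between libraries, whose animals are not named. Promoter motifs were not analysed here.

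The segments and lists were chosen with earlier results of these data known. Named were the 10 segments with the most counts, up to 6 called segments per sepsis comparison and 5 per stage comparison by adjusted p, segments leading a library with 25% or more of a chain, members of pairs, the 3 on each side of the count minimum, and constant and B lineage genes. Others were named after their values were seen. Floors are 3 counts over a group and cover counting error only, as do intervals.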

Additional observations from a re-analysis of the deposited data

How the results depend on the processing

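RLE factors and library sizes without immunoglobulin features kept all 128 named changes. The other alternatives ended 106 of the 128 at least once, and 22 were kept in each that gave a value. The causes were not tested.

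With no low-count filter the number of segments called was 0 in septic proNeu2, 1 in septic preNeu, 2 for proNeu1 against GMP and 0 for septic proNeu1 against septic GMP. With only the libraries compared in the model it was 12 in septic GMP, 0 in septic proNeu2, 8 for proNeu1 against GMP, 14 for proNeu2 against proNeu1, 3 for preNeu against proNeu2, 11 for cMoP against GMP and 2 for septic proNeu1 against septic GMP. Halved counts gave 8 for proNeu1 against GMP, 12 for proNeu2 against proNeu1, 1 for preNeu against proNeu2 and 2 for septic proNeu1 against septic GMP, and the stricter filter gave 3 for preNeu against proNeu2. Without the 5 shallow libraries it was 8 in septic proNeu1, 0 in septic preNeu, 17 in the mean sepsis effect and 2 for preNeu against proNeu2. DESeq2 called 11 in septic proNeu1, 7 in septic proNeu2, 11 in septic preNeu, 0 for proNeu1 against GMP, 3 for preNeu against proNeu2 (2 higher and 1 lower), 13 for cMoP against GMP, 1 for TpMo against cMoP, 3 for Ly6Chi Mo against TpMo, and 8, 3 and 7 along the septic path.

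Leaving out 1 library gave 7 to 21 calls in septic GMP, 8 to 23 in septic proNeu1, 0 to 5 in septic proNeu2, 0 to 3 in septic preNeu, 19 to 40 in the mean sepsis effect, 0 to 4 for proNeu1 against GMP, 2 to 5 for proNeu2 against proNeu1, 1 to 4 for preNeu against proNeu2, 8 to 18 for cMoP against GMP, 0 to 1 for septic proNeu1 against septic GMP, and 0 in the interaction and the 4 comparisons with no call. For proNeu1 against GMP it was 1, 0 and 1 without GMP 1, 2 and 3 and 0 and 2 without proNeu1 2 and 3. For proNeu2 against proNeu1 it was 2 without proNeu2 2. For preNeu against proNeu2 it was 2, 1 and 2 without proNeu2 1, 2 and 3 and 1 and 3 without preNeu 1 and 2. For Igkv8-30 in septic proNeu2 it gave log2 fold changes of -9.66 to 2.70, the latter without proNeu2 2 (adjusted p = 0.854). The summed level of cMoP fell to 2.77 CPM without cMoP 1.

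With a summed count minimum of 200 the septic preNeu sum was 4.54 CPM, the effective number in septic proNeu1 2.56 for heavy and 2.87 for light segments, and the number of pairs 26. Counted by families in place of segments, the effective number of heavy chains was 3.96 in GMP and 4.35 in proNeu1, and of light chains 3.60 in septic proNeu1. A pairing threshold of 33% gave 282 pairs and one of 75% gave 13. Without preNeu 3 the preNeu sum was 36.0 CPM.

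No paired analysis was possible because the labels carry no replicate numbers shared between groups. Of the 124 segments 39 were too low to test, and in the septic and monocyte-path groups most were at or under the floor of 3 counts. A change is not detectable at this depth where both groups compared are at or under it, and where 1 is, only a bound can be given.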
